A study of Mus musculus with 12 samples.

Results

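The genes described here are 8 enzymes of cholesterol synthesis, Hmgcs1, Idi1, Fdps, Fdft1, Sqle, Lss, Cyp51 and Hsd17b7, followed in RNA from mouse hearts. They were chosen by symbol from the 55453 symbols counted in each library, with earlier results of these data known, and the question was whether Hsd17b7 moved with the other 7 genes or alone. All 8 had reads in each of the 12 libraries, and all 8 passed the filter on low counts that left 14757 genes for testing. Because the differences between the groups were part of the choice, the values of these 8 genes are a description. Where their number past a threshold is counted, the share of all tested genes by the main tool, edgeR, stands beside it and nothing is read from it. Counts by the other tools, DESeq2 and limma-voom, are given with no share of all genes called by them. Adjusted p-values are printed for other genes, in lists that were also chosen with earlier results known.

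The study compared hearts of C57BL/6J mice labelled as wild type (WT) or knockout (KO) for PDE10A, a phosphodiesterase that breaks down cAMP and cGMP, after vehicle or doxorubicin (DOX), an anthracycline cancer drug that injures the heart. Each of the 4 groups (WT vehicle, WT DOX, KO vehicle and KO DOX) held 3 libraries from mice with numbers of their own. Per the labels' protocols, DOX was a single intraperitoneal dose of 15 mg/kg, the course ran for 7 days, and mice of either sex were used. The same protocols describe dosing with TP-10, a PDE10A inhibitor, or with its vehicle, and no library used here is labelled with the inhibitor. How the KO allele was made, in which cells it acts and which sex each mouse had are not given in the labels. The KO vehicle mice are titled veh_3393, veh_3394 and veh_3395 and the other mice have numbers from 1 to 24. Whether the KO vehicle mice were housed or processed apart is not given, so such a difference and the KO vehicle group cannot be told apart.

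Cholesterol is built from acetyl-CoA through mevalonate, isoprenoid units, squalene and lanosterol, and the last steps trim lanosterol to cholesterol. The genes of the pathway are classically controlled together by SREBP2, a membrane-bound transcription factor that SCAP escorts to the Golgi for cleavage when sterols are low and that INSIG proteins hold in the endoplasmic reticulum when sterols are high. Hsd17b7 encodes the 3-ketosteroid reductase that acts during removal of the methyl groups at carbon 4 of the sterol, and the same enzyme can also reduce estrone to estradiol.

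Total counts ran from 23846398 to 32921876 per library, and mitochondrially encoded genes took 19.5% of them in WT vehicle mouse 2 and 24.4% to 33.6% in the other 11 libraries. Pde10a itself went against the KO label. The level of Pde10a was 3.38, 1.00 and 1.86 CPM (counts per 1000000 after TMM scaling, edgeR's correction for library size) in the WT vehicle libraries and 9.31, 11.9 and 9.13 CPM in the libraries labelled KO vehicle (log2 difference 2.30, SE 0.32, adjusted p = 0.0047, edgeR's quasi-likelihood test). Every statement below about KO therefore concerns the libraries labelled KO. Cardiomyocyte markers were abundant in all 12 libraries, at a summed level of 51122 to 76105 CPM over 8 of 8 genes. KO mouse veh_3394 and KO DOX mouse 18 stood apart through 5 of 5 atrial markers summing to 2142 and 1586 CPM, against 61.8 to 259 CPM in the other 10 libraries. Their adipocyte markers (8 of 8 genes with reads in at least 1 library) summed to 23.8 and 73.4 CPM. WT vehicle mouse 2 came close to the first of these at 20.9 CPM, WT vehicle mouse 3 had 9.52 CPM and the other 8 libraries had at most 3.08 CPM. WT vehicle mouse 2 also had the highest sum of macrophage markers (8 of 8 with reads), 506 CPM against 170 to 321 CPM in the other 11.

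Promoter sequence from RefSeq (GRCm38.p6) was at hand for 5 of the 8 genes, Hmgcs1, Idi1, Lss, Cyp51 and Hsd17b7. The stretches before the annotated starts of Hmgcs1 and Hsd17b7 are shown because these 2 genes gave opposite pictures below, one nearly level over the 4 groups and the other different in each. The Hmgcs1 stretch lies at chr13:119690101-119690350 on the plus strand and the Hsd17b7 stretch at chr1:169969243-169969455 on the minus strand. Both are written 5′ to 3′ along the gene, and capitals mark matches on either strand to 4 motifs: TCACNCCAC (a sterol regulatory element), CCAAT (NF-Y), GGGCGG (Sp1) and CACGTG (an E-box).
Hmgcs1: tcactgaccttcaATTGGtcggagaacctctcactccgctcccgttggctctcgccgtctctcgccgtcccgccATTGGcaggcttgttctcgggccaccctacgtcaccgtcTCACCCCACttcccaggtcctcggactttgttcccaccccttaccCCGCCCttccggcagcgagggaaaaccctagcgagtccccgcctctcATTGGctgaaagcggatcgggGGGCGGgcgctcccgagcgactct
Hsd17b7: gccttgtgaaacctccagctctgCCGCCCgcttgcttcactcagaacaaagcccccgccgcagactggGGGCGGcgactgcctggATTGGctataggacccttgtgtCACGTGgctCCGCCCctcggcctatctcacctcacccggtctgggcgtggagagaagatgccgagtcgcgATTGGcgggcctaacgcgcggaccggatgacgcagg
In the window of 250 bases before its start, Hmgcs1 held 1 match to TCACNCCAC, 137 bases upstream, with 3 matches to CCAAT and 2 to GGGCGG. Hsd17b7 held none of the first, 3 matches to CCAAT, of which the 1 nearest the start lies outside the printed stretch, 3 to GGGCGG and 1 to CACGTG, 143 bases upstream. Idi1, Lss and Cyp51 held none to TCACNCCAC or CACGTG and at least 1 match each to CCAAT and GGGCGG. Among 32851 RefSeq promoter windows of this length, 1.05% held TCACNCCAC, 33.8% CCAAT, 32.7% GGGCGG and 6.02% CACGTG. A match is only a run of letters, and none of these libraries measured binding.

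Per length of exon, the 8 genes fell into 3 tiers. Averaged over the 12 libraries, Fdft1 and Hmgcs1 stood at 7.12 and 6.85 CPM per kb of exon, Cyp51 and Hsd17b7 at 2.45 and 2.45, and Lss, Fdps, Idi1 and Sqle at 0.407, 0.186, 0.14 and 0.121. Ranges over the libraries overlapped between neighbours within a tier and did not overlap between tiers. In the lowest tier, Idi1, Sqle and Fdps rested on few reads: Idi1 had 3 to 31 reads per library, Sqle 9 to 36 and Fdps 14 to 33. Lss had 67 to 199 reads per library over 10787 exon bases. For 3 reads, the exact Poisson 95% interval is 0.619 to 8.77 reads, which covers counting error only.

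Hsd17b7 (chr1:169949535-169969241, minus strand, GENCODE M21 on GRCm38) was the gene of the 8 whose groups separated in every comparison of 2 groups. Its level was 7.57, 7.43 and 6.78 CPM in WT vehicle mice 1, 2 and 3, and 11.4, 9.94 and 9.13 CPM in WT DOX mice 21, 22 and 24. It was 19.2, 15.7 and 17.8 CPM in the libraries labelled KO vehicle (mice veh_3393, veh_3394 and veh_3395) and 14.9, 15.2 and 14.8 CPM in those labelled KO DOX (mice 18, 19 and 20). WT vehicle was lowest, WT DOX next, then KO DOX, and KO vehicle highest, and no library of one group reached into the range of another. The group means were 7.26 ± 0.418, 10.2 ± 1.17, 15.0 ± 0.235 and 17.5 ± 1.76 CPM in that order (SD, n = 3 each). In whole hearts, a change in the number of cells of a type and a change in RNA per cell cannot be told apart.

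On the log2 scale, Hsd17b7 was higher in KO than in WT by 1.27 (SE 0.12), or 2.41-fold, under vehicle and by 0.56 (SE 0.11) under DOX. DOX went with a level higher by 0.48 (SE 0.12) in WT and with a difference of -0.23 (SE 0.11) in KO. The KO against WT difference under vehicle ranked 201 of 14757 tested genes from the highest, with 1.36% of genes at or above it. Over 22 other ways of processing the counts, that difference stayed between 1.20 and 1.35, and the DOX difference in WT between 0.39 and 0.56. Reads for Hsd17b7 numbered 170 to 504 per library, and none of its 5104 stretches of 50 bases of transcript recurs in another annotated gene.

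Other features also differed between groups, not all in the order of Hsd17b7. Endothelial markers (8 of 8 with reads) summed to 1657 to 1713 CPM in WT vehicle, the group lowest in Hsd17b7, and to 899 to 1217 CPM in the other 9 libraries. Neutrophil markers (6 of 6 with reads) summed to 2.00 to 3.45 CPM in WT vehicle, 8.63 to 36.7 CPM in WT DOX, 6.78 to 10.4 CPM in KO vehicle and 3.98 to 5.55 CPM in KO DOX, so WT vehicle was lowest here too. Erythroid markers (5 of 5 with reads) summed to 50.8 to 172 CPM in WT vehicle, 0.144 to 0.395 CPM in WT DOX, 46.5 to 253 CPM in KO vehicle and 0.709 to 213 CPM in KO DOX. Of 13 circadian clock genes, 7 passed the adjusted threshold between KO and WT under vehicle (5 higher and 2 lower), where 2.88% of all tested genes did, led in size by Arntl, a core clock activator, at 13.1, 13.0 and 8.57 CPM in WT and 0.950, 1.06 and 1.92 CPM in KO (log2 -3.15, SE 0.41, adjusted p = 0.00339, edgeR's quasi-likelihood test). The hour at which hearts were taken is not given. The part of endothelial, neutrophil or erythroid content or of the clock in the Hsd17b7 values was not tested. Without KO mouse veh_3394 and KO DOX mouse 18, the libraries highest in atrial and adipocyte markers, Hsd17b7 was higher in KO under vehicle by 1.34 on the log2 scale.

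**Figure D1:**
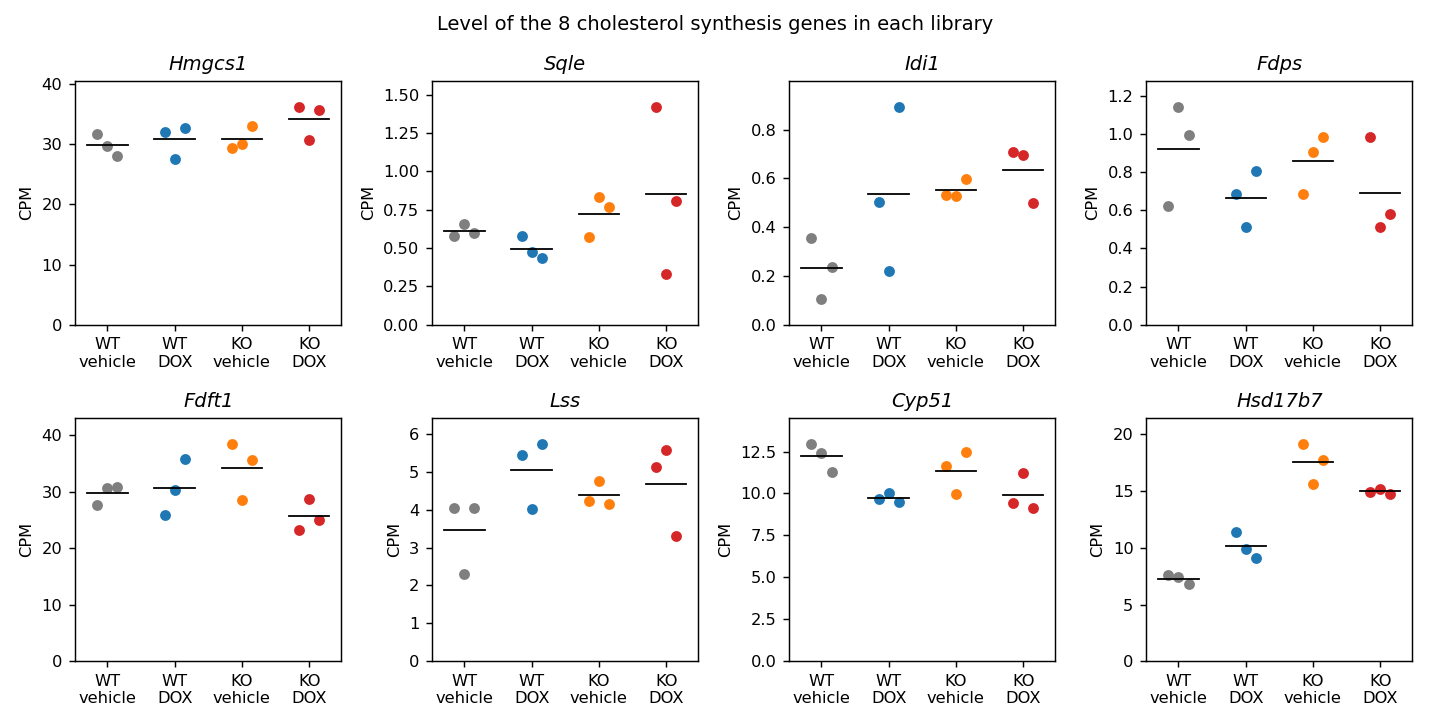
Level of each of the 8 genes in each of the 12 libraries, in CPM after TMM scaling, with 1 panel per gene, a linear axis from 0, 1 point per library and a line at each group mean (n = 3). Hsd17b7 climbs from 6.78 to 7.57 CPM in WT vehicle to 15.7 to 19.2 CPM in KO vehicle with no overlap, whereas the points of Hmgcs1 stay between 27.6 and 36.2 CPM in all 4 groups.

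At the head of the pathway, Hmgcs1 (chr13:119690379-119708260, plus strand), which makes HMG-CoA, varied little. Its level was 31.8, 29.7 and 28.1 CPM in WT vehicle, 32.1, 27.6 and 32.7 CPM in WT DOX, 29.4, 30.1 and 33.0 CPM in KO vehicle and 36.2, 30.8 and 35.7 CPM in KO DOX. All 4 groups overlapped, and the log2 differences were 0.05 for DOX in WT, 0.15 for DOX in KO, 0.05 for KO against WT under vehicle and 0.15 under DOX, each with an SE of 0.10. With 709 to 1137 reads per library, Hmgcs1 was the gene measured with the smallest SE of the 8 in each of these comparisons.

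Idi1 (chr13:8885501-8892451, plus strand) interconverts the 2 isoprenoid building units. It was read 8, 3 and 6 times in WT vehicle, 14, 6 and 31 times in WT DOX, 14 times in each KO vehicle library and 18, 19 and 13 times in KO DOX. Scaled to depth, this was 0.356, 0.104 and 0.238 CPM in WT vehicle against 0.532, 0.528 and 0.597 CPM in KO vehicle, with every KO library above every WT library. The log2 difference under vehicle, 1.27, was as large as that of Hsd17b7, but its SE was 0.53 against 0.12. DOX in WT gave 1.26 (SE 0.52), with overlapping groups and 31 of the 51 WT DOX reads from mouse 24. Of the Idi1 stretches of 50 bases, 25.3% recur in 5 other annotated genes, among them Gm48574, whose exons face 9.22% of the Idi1 exon bases on the other strand. Those 5 genes were counted 0 or 1 times per library.

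Fdps (chr3:89093588-89101959, minus strand), the farnesyl diphosphate synthase, had 0.622, 1.14 and 0.991 CPM in WT vehicle, 0.683, 0.510 and 0.806 CPM in WT DOX, 0.684, 0.906 and 0.981 CPM in KO vehicle and 0.985, 0.512 and 0.578 CPM in KO DOX. All groups overlapped, and the log2 differences ran from -0.46 (SE 0.34) for DOX in WT to 0.04 for KO against WT under DOX. Its count is uncertain because 26.7% of its exon bases overlap exons of Gm43738 on the same strand. That gene was counted 0 times in every library.

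Fdft1 (chr14:63145150-63179578, minus strand) makes squalene and is the first enzyme committed to sterols. Its level was 27.6, 30.7 and 30.9 CPM in WT vehicle, 26.0, 30.4 and 35.8 CPM in WT DOX, 38.5, 28.5 and 35.7 CPM in KO vehicle and 23.2, 28.8 and 25.1 CPM in KO DOX. KO DOX sat at the low end, yet its highest library passed the lowest of KO vehicle, and DOX in KO gave -0.41 (SE 0.14) on the log2 scale. The other differences were 0.05 for DOX in WT, 0.20 for KO against WT under vehicle and -0.26 under DOX. Of the exon bases of Fdft1, 18.3% face exons of Ctsb on the other strand, a gene counted 9598 to 15914 times per library, and the strand setting of the counting is not given, so reads of Ctsb in Fdft1 cannot be told apart.

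Sqle (chr15:59315077-59331192, plus strand) oxidises squalene and is a rate-limiting step. It had 0.579, 0.656 and 0.595 CPM in WT vehicle, 0.575, 0.473 and 0.432 CPM in WT DOX, 0.570, 0.830 and 0.768 CPM in KO vehicle and 1.42, 0.329 and 0.809 CPM in KO DOX. WT DOX lay just below WT vehicle in every library, by a log2 difference of -0.31 with an SE of 0.44 that is larger than the difference. The widest gap was 0.78 (SE 0.42) for KO against WT under DOX, where KO DOX mouse 18 alone held 36 of 66 reads. KO DOX mouse 18 and KO mouse veh_3394, highest in Sqle within their groups, are the libraries highest in atrial and adipocyte markers. Without them the difference under DOX was 0.20 and DOX in KO turned from 0.23 to -0.23, and the part of that RNA was not tested.

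Lss (chr10:76531588-76557138, plus strand) closes squalene epoxide into lanosterol. It had 4.05, 2.31 and 4.05 CPM in WT vehicle, 5.43, 4.00 and 5.73 CPM in WT DOX, 4.22, 4.75 and 4.14 CPM in KO vehicle and 5.12, 5.56 and 3.31 CPM in KO DOX. KO vehicle lay just above WT vehicle in every library, with a log2 difference of 0.34 (SE 0.25), and WT vehicle mouse 2, the library with the lowest mitochondrial share, was lowest of all 12. DOX in WT gave 0.55 (SE 0.25), and without WT vehicle mouse 2 it was 0.32.

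Cyp51 (chr5:4081145-4104746, minus strand), the first enzyme to act on lanosterol, removes its methyl group at carbon 14. It had 13.0, 12.4 and 11.3 CPM in WT vehicle, 9.67, 10.0 and 9.50 CPM in WT DOX, 11.6, 10.0 and 12.5 CPM in KO vehicle and 9.41, 11.2 and 9.13 CPM in KO DOX. Every WT DOX library was below every WT vehicle library, at a log2 difference of -0.33 (SE 0.12), opposite in sign to that of Hsd17b7. In KO the DOX difference was -0.20 (SE 0.12) and the groups overlapped. KO and WT differed by -0.11 under vehicle and 0.03 under DOX. Exons of Akap9, counted 723 to 1377 times per library, face 3.76% of the Cyp51 exon bases on the other strand.

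Set side by side, no comparison of 2 groups showed all 8 genes on 1 side of 0. For DOX in WT, 1 of 8 (Hsd17b7) passed an adjusted p of 0.05, where 18.6% of all tested genes did, and 3 of 8 had groups that did not overlap (Hsd17b7 higher, Sqle and Cyp51 lower), where 32.6% of genes did. For KO against WT under vehicle, 1 of 8 (Hsd17b7) passed, where 2.88% of genes did, and 3 of 8 (Hsd17b7, Idi1 and Lss, all higher) did not overlap, where 31.3% of genes did. For DOX in KO, 0 of 8 passed with edgeR against 0.0136% of genes, and 1 of 8 had an unadjusted p under 0.05, as did 789 of all 14757. With DESeq2 or limma-voom 0 passed. Hsd17b7 alone had groups that did not overlap, as 16.3% of genes did. For KO against WT under DOX, 0 of 8 passed with edgeR against 0.42% of genes, and 1 of 8 had an unadjusted p under 0.05, as did 2285 of all 14757. With DESeq2 and with limma-voom 1 (Hsd17b7) passed, and the 0.42% is not the share for those tools. Hsd17b7 alone did not overlap, as 19.6% of genes did. These differences entered the choice of the genes, so nothing is read from the counts. Hsd17b7 no longer passed for DOX in WT if WT vehicle mouse 2 (log2 0.50) or 3 (0.44) or WT DOX mouse 22 (0.50) or 24 (0.56) was left out, and with limma-voom Idi1 passed as well for KO against WT under vehicle.

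**Figure D2:**
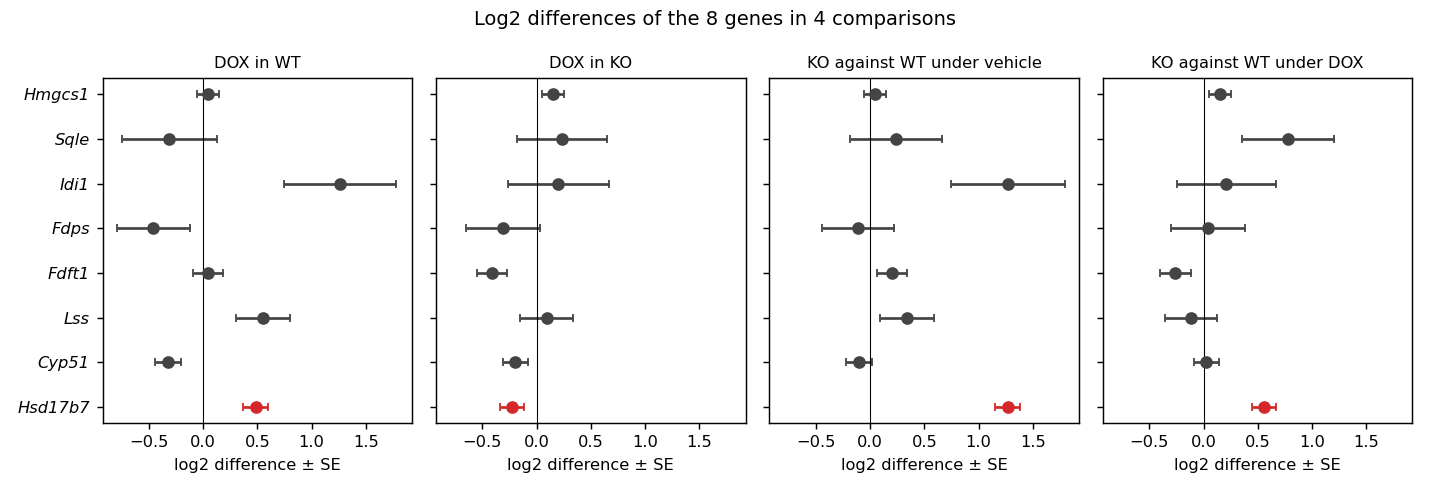
Log2 difference of each of the 8 genes with its standard error (points and bars, linear axis in log2 units) in 4 comparisons, from 1 model over all 12 libraries, with Hsd17b7 in red. Hsd17b7 lies at 1.27 for KO against WT under vehicle with an SE of 0.12, Idi1 at the same value with an SE of 0.53, and the other 6 genes lie between -0.11 and 0.34.

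The median log2 difference of the 7 genes without Hsd17b7 was 0.05 for DOX in WT, 0.09 for DOX in KO, 0.20 for KO against WT under vehicle and 0.04 under DOX. Over all tested genes the 4 medians lay between 0.00 and 0.02. Hsd17b7 was thus above the median of the other 7 in 3 of the comparisons and below it for DOX in KO. DOX in WT and KO against WT under vehicle share the WT vehicle libraries. In those 2 comparisons Hsd17b7 gave 0.48 and 1.27, Idi1 1.26 and 1.27, Lss 0.55 and 0.34, Cyp51 -0.33 and -0.11, and Fdps -0.46 and -0.11. The change in the DOX difference from WT to KO was -0.71 (SE 0.16) for Hsd17b7, -1.06 (SE 0.69) for Idi1, -0.46 for Lss, -0.46 for Fdft1, 0.54 for Sqle, 0.15 for Fdps, 0.13 for Cyp51 and 0.10 for Hmgcs1. None of the 8 passed an adjusted p of 0.05 for it with edgeR, where 0.21% of all tested genes did. An unadjusted p under 0.05 was found for 2 of the 8 and for 2365 of all 14757. Hsd17b7 passed with DESeq2 and with limma-voom.

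Whether libraries high in Hsd17b7 were also high in the other 7 genes was described by correlation of log2 CPM. The WT and KO libraries form separate clusters in Hsd17b7, so they were taken apart. Against the mean of the other 7 genes, Pearson's r for Hsd17b7 was 0.16 over the 6 WT libraries and 0.17 over the 6 KO libraries. Each other gene was set against the mean of its own other 7. Over the WT libraries r was 0.77 for Hmgcs1, 0.63 for Lss, 0.63 for Idi1 and 0.07 for Fdft1. For Fdps, Sqle and Cyp51 it was -0.35, -0.59 and -0.66 there. Over the KO libraries r was 0.85 for Fdps and lay between -0.15 (Fdft1) and 0.16 (Idi1) for the rest, with Hmgcs1 at 0.06. Over all 12 libraries, with the gap between WT and KO left in, r was 0.54 for Hsd17b7 (Spearman's rho 0.61), 0.55 for Hmgcs1 and 0.56 for Idi1. With each group's mean removed, r for Hsd17b7 was -0.18 over the 12 libraries (rho -0.08). Hmgcs1 had an r of 0.66 (rho 0.67) with the mean of the other 7 on the same deviations, and Idi1 0.43 (rho 0.48). Cyp51 and Fdft1 had -0.24 and -0.24. Over the 28 pairs of the 8 genes the median r of these deviations was -0.03, with 5 pairs above 0.5 and 2 below -0.5. The pairs of Hsd17b7 ran from -0.31 to 0.53, highest with Cyp51. All of these values share the libraries, their depth and their scaling factors, and 3 of the genes rest on at most 36 reads per library.

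**Figure D3:**
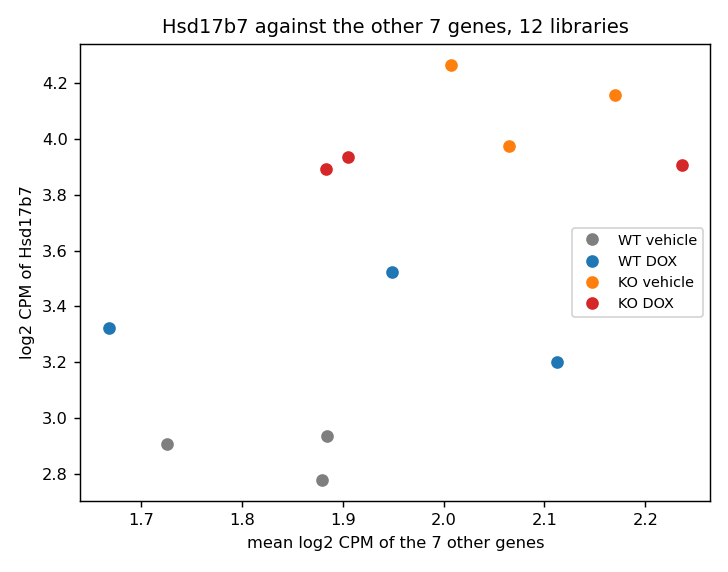
Level of Hsd17b7 (vertical axis, log2 CPM) against the mean level of the other 7 genes (horizontal axis, mean log2 CPM) in the 12 libraries, coloured by group. The groups form layers along the vertical axis, with WT vehicle lowest and KO vehicle highest, and within the WT or the KO libraries the points show little slope (r = 0.16 and 0.17, n = 6 each).

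The rest of the pathway and its control genes were tested gene by gene and counted by list, with no test of a list as a whole. Of 33 listed genes for the other sterol synthesis steps, the SREBP machinery and sterol uptake and transport, 32 were tested. For DOX in WT, 5 of the 32 passed (2 higher and 3 lower), against 18.6% of all tested genes, and the median log2 difference of the 32 was 0.02. With DESeq2 6 of the 32 passed and with limma-voom 11. Here and below, no share of all genes called by those tools is given, so their counts cannot be read against edgeR's percentages. The edgeR count was 7 without WT DOX mouse 21 and 6 without mouse 1 of WT vehicle. It was 1 when any of WT vehicle mouse 2, WT DOX mouse 22 and WT DOX mouse 24 was left out, 2 without WT vehicle mouse 3, KO mouse veh_3393 or KO DOX mouse 20, 3 without KO mouse veh_3394 or veh_3395 or KO DOX mouse 18, and 0 when the 6 WT libraries were fitted alone. Scaled by total counts in place of TMM factors, the 5 calls split into 4 higher and 1 lower. For KO against WT under vehicle, 0 of 32 passed with edgeR, and 10 had an unadjusted p under 0.05, as did 3844 of all 14757 tested genes. With DESeq2 1 of the 32 passed in that comparison and with limma-voom 11. The median difference was 0.14, with 21 of 32 above 0. For DOX in KO, for KO against WT under DOX and for the change in the DOX difference, 0 of 32 passed with edgeR. An unadjusted p under 0.05 was found for 3, 5 and 6 of them, and for 789, 2285 and 2365 of all 14757. In these comparisons DESeq2 called 1, 1 and 2 of the 32 genes and limma-voom 1, 1 and 4.

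Within the mevalonate and sterol steps, Pmvk, the phosphomevalonate kinase, fell with DOX in WT from 9.62, 16.2 and 9.72 CPM to 8.48, 6.48 and 8.49 CPM (log2 -0.60, SE 0.19, adjusted p = 0.0447, edgeR's quasi-likelihood test). WT vehicle mouse 2, the library highest in macrophage markers, supplied the high value, and without it the difference was -0.30 with an adjusted p of 0.172 by the same edgeR test. Pmvk still passed only when the library left out was mouse 1 of WT vehicle or 21 of WT DOX. Nsdhl and Msmo1, whose products act beside Hsd17b7 in the removal of the carbon 4 methyl groups, gave 0.12 (SE 0.12) and 0.01 (SE 0.17) for KO against WT under vehicle, with edgeR adjusted p of 0.541 and 0.981. Sc5d and Mvd, a late desaturase and the mevalonate diphosphate decarboxylase, gave 0.26 and 0.40 there, with edgeR adjusted p of 0.154 and 0.146. In both, each KO vehicle library lay above each WT vehicle library. Groups did not overlap in 31.3% of all tested genes. Dhcr7, a late reductase, gave 0.18 (edgeR adjusted p 0.523). Lbr went the other way without overlap, from 18.7, 19.2 and 18.9 CPM in WT vehicle to 16.5, 14.6 and 17.2 CPM in KO vehicle. Of the 14 other sterol synthesis genes, 9 lay above 0 in that comparison. With edgeR 0 passed, against 2.88% of all tested genes, and limma-voom called 2 higher and 2 lower.

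Of the 7 genes of the SREBP machinery, 0 passed with edgeR for DOX in WT, where 4 had an unadjusted p under 0.05, as did 5321 of all 14757. With DESeq2 1 (Srebf1) passed and with limma-voom 2 (Srebf1 and Mbtps2). For KO against WT under vehicle 0 passed with edgeR or DESeq2, and 2 had an unadjusted p under 0.05, as did 3844 of all 14757. With limma-voom 2 (Insig2 and Mbtps2) passed there. Srebf2, which encodes SREBP2, had 18.2 to 28.6 CPM in the 12 libraries and differed by 0.02 for DOX in WT and 0.19 for KO against WT under vehicle (edgeR adjusted p 0.93 and 0.414). Srebf1, which encodes the SREBP1 forms tied to fatty acid synthesis, had 33.5, 23.0 and 26.1 CPM in WT vehicle, 35.8, 45.3 and 33.1 CPM in WT DOX, 29.7, 25.1 and 21.8 CPM in KO vehicle and 42.9, 43.7 and 41.2 CPM in KO DOX. Its DOX differences were 0.47 in WT (edgeR adjusted p 0.0552) and 0.74 in KO (edgeR adjusted p 0.246). In KO the DOX and vehicle libraries did not overlap, as in 16.3% of all tested genes, and Srebf1 was the 1 gene of the 7 that passed for DOX in KO with DESeq2 and with limma-voom. Scap gave 0.30 for DOX in WT, and Insig1 -0.12 (edgeR adjusted p 0.11 and 0.644). Insig2 lay between 41.8 and 45.6 CPM in WT vehicle and between 47.4 and 56.3 CPM in the other 9 libraries, a pattern with WT vehicle lowest as in Hsd17b7, at 0.19 for KO against WT under vehicle (edgeR adjusted p 0.148).

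Uptake and transport genes moved in both directions with DOX in WT. Mylip, a ligase that marks lipoprotein receptors for degradation, rose from 21.5, 17.8 and 22.3 CPM to 30.0, 60.7 and 37.6 CPM (log2 1.06, SE 0.21, adjusted p = 0.0146, edgeR's quasi-likelihood test). Lipa, the lysosomal lipase that frees cholesterol from its esters, rose by 0.42 (SE 0.11, edgeR adjusted p 0.028). Stard4 and Stard3, carriers of cholesterol between membranes, fell by 0.66 and 0.46 on the log2 scale (edgeR adjusted p 0.044 and 0.0398), although the Stard4 libraries overlapped. Mylip no longer passed without WT vehicle mouse 2, where its difference was 0.97 (edgeR adjusted p 0.0514), and Lipa did not pass if that library, WT DOX mouse 22 or WT DOX mouse 24 was dropped. Stard4 still passed only when the library left out was WT vehicle mouse 2, WT DOX mouse 21 or KO DOX mouse 19 (-0.90 to -0.54 over all alternatives). Stard3 was lost without mouse 2 or 3 of WT vehicle, 22 or 24 of WT DOX, veh_3393 of KO vehicle or 20 of KO DOX (-0.60 to -0.36).

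Lists next to the pathway were also counted, beside 18.6% of all tested genes that passed for DOX in WT and 2.88% for KO against WT under vehicle. Of 10 efflux and esterification genes, 3 rose with DOX in WT: Abca1, the cholesterol exporter, by 0.89 (edgeR adjusted p 0.0228), Nceh1, a cholesterol ester hydrolase, by 0.44 (edgeR adjusted p 0.0393) and Abca7 by 0.36 (edgeR adjusted p 0.0492). Of 13 fatty acid synthesis genes, Acacb rose by 0.51 and Thrsp fell by 0.81 on the log2 scale in that comparison (edgeR adjusted p 0.0444 and 0.0134). Acss2, which makes acetyl-CoA from acetate, was the 1 gene of these lists that passed with edgeR for KO against WT under vehicle, from 31.9, 32.5 and 31.6 CPM to 39.2, 44.1 and 43.1 CPM (log2 0.40, SE 0.09, adjusted p = 0.0356, edgeR's quasi-likelihood test). With 1 library left out at a time, Thrsp passed throughout and the Abca1 call was lost on dropping mouse 2 or 3 of WT vehicle or mouse 22 of WT DOX (0.50 to 1.09 over all alternatives). Acacb still passed only on dropping mouse 1 of WT vehicle, 21 of WT DOX, or 18 or 19 of KO DOX (0.41 to 0.67). For Nceh1 the call held only on dropping mouse 1 of WT vehicle, 21 of WT DOX or 18 of KO DOX (0.27 to 0.57), and for Abca7 only on dropping mouse 3 of WT vehicle or 21 of WT DOX (0.20 to 0.47). Acss2 still passed only when the dropped library was mouse 1 of WT vehicle or any 1 of WT DOX (0.35 to 0.45). None of these 5 DOX calls passed when the 6 WT libraries were fitted alone. The WT DOX libraries also had the higher neutrophil sums and the erythroid sums near 0 given above, and the part of those cells in the DOX differences was not tested. Fasn, Scd1 and Scd2 peaked in KO mouse veh_3394 and KO DOX mouse 18, with Scd1 at 61.7 and 69.2 CPM against 10.2 to 19.5 CPM in the other 10 libraries. These 2 had the highest adipocyte and atrial sums, and WT vehicle mouse 2, with a near adipocyte sum, had the 19.5 CPM. The part of that RNA was not tested.

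Of 12 genes for the isoprenoid branches, which use the same farnesyl precursor for other products, 11 were tested. Fnta, the shared subunit of the farnesyl and geranylgeranyl transferases, fell by 0.35 with DOX in WT (edgeR adjusted p 0.0387), and Ggps1, which makes geranylgeranyl diphosphate, gave 0.32 (edgeR adjusted p 0.0587). With 1 library left out, Fnta still passed only on dropping mouse 1 of WT vehicle, 21 of WT DOX or 18 of KO DOX (-0.42 to -0.25 over all alternatives). Of 11 other listed genes of the Hsd17b name family, 5 were tested. For KO against WT under vehicle 0 of the 5 passed with edgeR, and 2 had an unadjusted p under 0.05, as did 3844 of all 14757 tested genes. With DESeq2 0 of the 5 passed and with limma-voom 3. Their 5 differences there ran from -0.57 to 0.19.

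**Figure D4:**
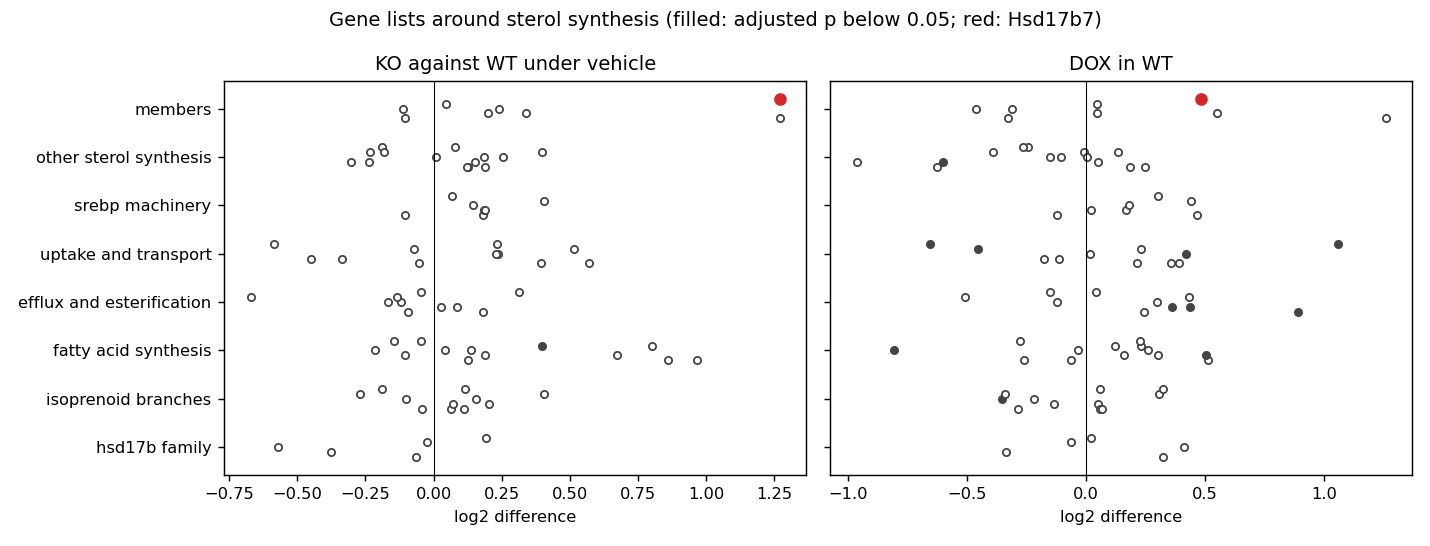
Log2 difference of each tested gene (1 point per gene) in the 8 genes described here (members) and in 7 related lists, for KO against WT under vehicle (left) and DOX in WT (right), with filled points for an edgeR adjusted p under 0.05 and Hsd17b7 in red. Under vehicle, Hsd17b7 at 1.27 lies beyond every gene of the related lists, which end at 0.97, and 1 other point (Acss2) is filled, whereas for DOX in WT filled points lie on both sides of 0.

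The genes around Hsd17b7 on chromosome 1 were compared in the same way. Within 1000000 bases on each side, 12 other genes were tested, and 0 passed for KO against WT under vehicle with edgeR. Of the 12, 2 had an unadjusted p under 0.05, as did 3844 of all 14757 tested genes. With DESeq2 0 passed and with limma-voom 6. Their differences ran from -0.42 (Rgs4) to 0.95 (Nos1ap), with a median of 0.08. For DOX in WT, 4 of the 12 passed with edgeR, against 18.6% of all tested genes. Of these, 1 was higher and 3 were lower, among them 3110045C21Rik, described next. DESeq2 called 2 higher and 3 lower in that comparison, and limma-voom 2 higher and 4 lower. On the right, 3110045C21Rik, a transcript on the other strand, starts 168 bases from the start of Hsd17b7, so the printed promoter stretch reaches into it. It was counted 4 to 25 times per library, at 0.356, 0.864 and 0.516 CPM in WT vehicle, 0.252, 0.146 and 0.173 CPM in WT DOX, 0.874, 0.717 and 0.640 CPM in KO vehicle and 0.473, 0.622 and 0.617 CPM in KO DOX. With DOX in WT it fell by 1.61 on the log2 scale (SE 0.40, adjusted p = 0.0226, edgeR's quasi-likelihood test), where Hsd17b7 was higher, and for KO against WT under vehicle it gave 0.34 (SE 0.35). It no longer passed if mouse 2 or 3 of WT vehicle, or mouse 22 or 24 of WT DOX, was dropped, with differences between -1.85 and -1.19 over 20 alternatives. Further right, Ddr2, a collagen receptor 3066 bases away, gave 0.22 for KO against WT under vehicle (edgeR adjusted p 0.509). On the left, Ccdc190 and Gm15852 had at most 11 and 1 reads per library and were not tested.

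**Figure D5:**
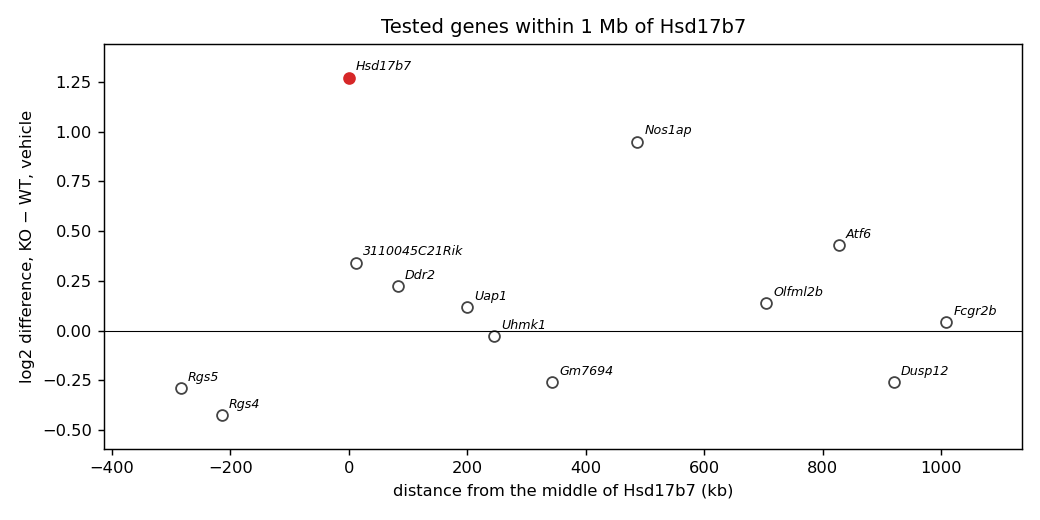
Log2 difference of KO against WT under vehicle (vertical axis) for Hsd17b7 (filled red) and the 12 other tested genes within 1000000 bases (open), by distance between gene middles in kb (horizontal axis). Hsd17b7 stands at 1.27, the next highest is Nos1ap at 0.95, and the 12 others have a median of 0.08.

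The genes most like Hsd17b7 over the 12 libraries, by Pearson's r of log2 CPM among all tested genes, were Vav2, Plekhb2, Slc35e1, Slc5a6 and Gm9825, with r of 0.95, 0.95, 0.95, 0.95 and 0.94 and Spearman's rho from 0.91 to 0.96. Those most like the mean of the other 7 genes were Ndrg4, Zkscan4, Samd10, Abcd2 and Cntrob, with r from 0.86 to 0.91 and rho from 0.85 to 0.92. No gene was in both sets of 5, and no sterol gene of the lists was in either. Sets of 5 leave out nearly all tested genes, so nothing is read from these absences. By r with the mean of the other 7 over the 12 libraries, Hsd17b7 itself ranked 986 of 14750 genes. That r was 0.54, with the gap between WT and KO left in. Idi1 ranked 994 against the mean of its own other 7. Gm9825, annotated as a processed pseudogene, had 0.0691 to 0.400 CPM in the 6 WT libraries and 2.62 to 6.12 CPM in the 6 KO libraries. Since Hsd17b7 differed between WT and KO libraries, any gene with a gap between those labels scores high on this measure, and the levels of Gm9825 are given with no test.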

How the data were processed

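RNA-seq libraries from 12 mouse hearts were used, 3 in each of 4 groups. The values are raw counts per gene symbol, deposited by the authors for each library separately. A dUTP kit that keeps the strand of mRNA was used, per the labels' protocols. The submitters' processing notes name featureCounts, Subread 1.6.4, fastp 0.20.0 and STAR 2.7.0f. The sources used here do not give the genome build, annotation, strand setting or handling of reads with several matches, so genes with copies or with overlaps on the other strand are uncertain.

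The counts entered R 4.3.3 unchanged. Genes passing edgeR's filterByExpr by group (14757 of 55453 symbols) were scaled with TMM factors, and group means were fitted over the 12 libraries together. The spread of each gene was estimated over the 4 groups together. The biological coefficient of variation common to all genes was 17.5%, and the tests did not use it as the spread of every gene. Comparisons used the quasi-likelihood F test of edgeR 4.0.16 with Benjamini-Hochberg adjustment over all tested genes at 0.05. Standard errors were taken from the log2 difference and its F value. CPM are TMM-scaled, and log2 CPM used a prior count of 2. Alternatives used DESeq2 1.42.0 and limma 3.58.1 (voom with sample weights), other scaling and filters, a covariate from the titles, 2 groups alone, and libraries left out. The fit was tested on simulated data. Positions come from GENCODE M21 on GRCm38, matched by symbol (98.3% found), and overlaps and shared 50-base stretches from the same annotation.

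The 8 genes and all gene lists were chosen with earlier results of these data known. Genes named were the 8 genes, a set of pathway genes listed whatever their p (some are not reported here), every listed gene that passed, the 2 nearest genes on each side of Hsd17b7 and the 5 genes most like Hsd17b7 or the mean of the other 7; Rgs4, Nos1ap, Mbtps2 and Gm43738 and other overlapping genes were named after their values were seen. Total counts were 23846398 to 32921876 per library. Chi-square per gene between replicates of a group was 8.33 to 164, so no 2 libraries agreed within sampling noise. Intervals cover counting error only. Mouse numbers differ in every group, so groups were not paired.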

Additional observations from a re-analysis of the deposited data

Results flagged for a closer look

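The DOX differences of Hsd17b7 had opposite signs in the 2 genotypes, 0.48 (SE 0.12) in WT and -0.23 (SE 0.11) in KO. The difference in KO passed with none of edgeR, DESeq2 and limma-voom. All 3 WT DOX libraries lay above all 3 WT vehicle libraries, and all 3 KO DOX libraries lay below all 3 libraries labelled KO vehicle. The nearest libraries in KO had 15.2 and 15.7 CPM. Groups did not overlap in 32.6% of all tested genes for DOX in WT and in 16.3% for DOX in KO. The DOX difference in KO less that in WT was -0.71 on the log2 scale (SE 0.16), and -0.79 to -0.62 over 21 alternatives. It did not pass an adjusted p of 0.05 with edgeR, and because Hsd17b7 was chosen with these values known, nothing is read from that threshold. KO vehicle mice differ from all others in their number range, and that difference and this one cannot be told apart.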

How the results depend on the processing

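The differences of Hsd17b7 entered its choice, so their ranges over the alternatives are a description: 1.20 to 1.35 for KO against WT under vehicle and 0.39 to 0.56 for DOX in WT. The number of the 32 other sterol and SREBP genes that passed depended more on the choices. For DOX in WT (5) it was 2 with a covariate from the suffix of the titles, 11 with limma-voom, 0 with only the 2 groups compared, 2 without KO mouse veh_3394 and KO DOX mouse 18, and 1 to 7 with 1 library left out. For KO against WT under vehicle (0) it was 1 with DESeq2 size factors, 3 with no filter, 1 with at least 1 CPM in 3 libraries, 1 with the DESeq2 test, 11 with limma-voom, 1 without mitochondrially encoded genes and 0 to 2 with 1 library left out. For DOX in KO (0) and for KO against WT under DOX (0) it was 1 with no filter, with DESeq2 and with limma-voom, and 0 to 0 and 0 to 1 with 1 library left out. For the change in the DOX difference (0) it was 2 with no filter, 2 with DESeq2, 4 with limma-voom and 0 to 1 with 1 library left out. The median of the 8 genes for DOX in KO (-0.05) was -0.20 with at least 1 CPM in 3 libraries, -0.24 without KO mouse veh_3394 and KO DOX mouse 18, and -0.19 to -0.013 with 1 library left out. The median for the change in the DOX difference (-0.18) was -0.46 with at least 1 CPM in 3 libraries, a filter that removes the 3 genes with the fewest reads. The cause of the other shifts was not tested. The largest shift in the median of all genes from another scaling was 0.05 on the log2 scale. With 3 mice per group, p-values of the main fit set a difference against a spread between these mice, estimated over the 4 groups together. The low counts of Idi1, Sqle and Fdps limit what can be read from those genes. No paired analysis was possible because the mouse numbers in the titles differ between the groups.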
